A study of Mus musculus with 2 samples.

Results

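Cells that carry transcripts of pericyte markers were examined in single-cell RNA sequencing (scRNA-seq) of mouse long bone. A cell was chosen by detection of at least 3 of 7 markers (Rgs5, Kcnk3, Steap4, Notch3, Cygb, Agtr1a and Olfm2), with no unique molecular identifier (UMI) of Cdh5, Ptprc or Myh11 and under 5 UMIs of Acan. These last genes mark endothelial cells (ECs), blood cells, smooth muscle cells and chondrocytes. Of 55783 kept cells, 1390 met the rule, 650 in the Control library and 740 in the Dach1OE library, and they are called marker-positive cells here. The label for these cells is pericytes with Rgs5 and Kcnk3, and most of the Control cells go against it. Only 224 of 650 Control cells (34.5%) and 499 of 740 Dach1OE cells (67.4%) held a Rgs5 UMI, and 38 and 77 held a Kcnk3 UMI. In ECs, which should lack Rgs5, 3.91% and 7.16% of cells held a Rgs5 UMI at median depths of 3243 and 3087.5 UMIs. Of marker-positive cells with at least 2000 UMIs, each thinned to 2000 UMIs, 24.8% and 55.6% held a Rgs5 UMI. Shallower cells were left out of this and every other thinned value. Of the marker-positive cells, 461 in Control (70.9%, exact 95% interval 67.3 to 74.4) and 212 in Dach1OE (28.6%, 25.4 to 32.1) had UMIs of each of Adipoq, Lepr and Cxcl12, the defining markers of marrow stromal cells. These values come from the genes that chose the cells or from the same cells, so they are a description.

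Pericytes are mural cells that sit within the basement membrane of capillaries, where they contact the endothelium and regulate vessel calibre and stability. Endothelial platelet-derived growth factor B recruits them through the receptor Pdgfrb, and Notch3 is the main Notch receptor of mural cells. In marrow, reticular stromal cells that make Cxcl12, Kitl and Adipoq also lie around vessels and share several of these transcripts with pericytes.

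Cells came from femur and tibia at postnatal day 30, from C57BL/6 mice of both sexes given tamoxifen. Control mice had the genotype Dach1OE +/f, the transgene without a Cre driver. Dach1OE mice had Apj CreERT2 - Dach1OE +/f, in which tamoxifen activates a Cre under control of Aplnr (Apj), a receptor gene of capillary ECs, and the Cre switches on a transgene of the transcription factor Dach1 in the Rosa26 locus. Per the study's methods the cross also held a R26-mT/mG reporter. There was 1 library per group and each pooled 2 mice, so there was no replicate library, no test was possible and every interval below covers counting error only. In ECs of the Control library Dach1 was at 5.18 CPM and in those of the Dach1OE library at 184 CPM, where CPM is a gene's UMIs scaled to 1000000 UMIs of its cell set, and in marker-positive cells it was 7.64 and 10.4 CPM. The driver gene Aplnr was at 533 and 519 CPM in ECs and at 6.44 and 3.07 CPM in marker-positive cells. The libraries held 28720 and 32028 cells with 143986818 and 166999989 UMIs, of which 26466 and 29317 cells were kept. Marker-positive cells had a median of 3316.5 UMIs in Control and 2964.5 in Dach1OE. The libraries shared 1049 cell labels, which 25 Control and 21 Dach1OE marker-positive cells carried, and Scrublet marked 30 and 33 of the marker-positive cells as doublets.

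Both subunits of the ATP-sensitive potassium channel of mural cells, the pore Kcnj8 and the sulphonylurea receptor Abcc9, recur in the results below, as do the markers Rgs5 and Steap4. Their promoters are shown because Notch3, a rule marker, acts through RBPJ, whose core motif is TGGGAA. Each is 250 bases before to 50 bases after the gene's start, read in the direction of the gene (RefSeq, GRCm38.p6), and capitals mark TGGGAA or its reverse complement TTCCCA. The Rgs5 promoter (chr1:169655251-169655550, plus strand) held no match.
Rgs5: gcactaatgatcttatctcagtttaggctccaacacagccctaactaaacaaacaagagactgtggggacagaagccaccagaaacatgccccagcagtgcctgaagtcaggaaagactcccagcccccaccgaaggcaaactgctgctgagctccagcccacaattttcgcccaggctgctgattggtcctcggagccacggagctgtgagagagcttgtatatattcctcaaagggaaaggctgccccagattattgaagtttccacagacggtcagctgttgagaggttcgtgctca
Steap4 (chr5:7960222-7960521, plus strand): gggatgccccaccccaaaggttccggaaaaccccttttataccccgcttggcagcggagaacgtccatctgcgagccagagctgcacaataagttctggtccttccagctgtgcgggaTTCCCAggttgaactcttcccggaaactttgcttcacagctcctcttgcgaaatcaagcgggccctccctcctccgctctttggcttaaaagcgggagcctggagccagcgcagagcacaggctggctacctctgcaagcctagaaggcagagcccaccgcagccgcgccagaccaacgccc
Kcnj8 (chr6:142571565-142571864, minus strand): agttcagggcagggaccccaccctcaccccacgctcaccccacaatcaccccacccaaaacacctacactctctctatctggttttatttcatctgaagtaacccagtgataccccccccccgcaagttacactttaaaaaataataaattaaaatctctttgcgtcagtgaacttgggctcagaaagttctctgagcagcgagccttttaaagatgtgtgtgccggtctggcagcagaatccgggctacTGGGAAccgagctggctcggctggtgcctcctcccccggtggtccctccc
Abcc9 (chr6:142702225-142702524, minus strand): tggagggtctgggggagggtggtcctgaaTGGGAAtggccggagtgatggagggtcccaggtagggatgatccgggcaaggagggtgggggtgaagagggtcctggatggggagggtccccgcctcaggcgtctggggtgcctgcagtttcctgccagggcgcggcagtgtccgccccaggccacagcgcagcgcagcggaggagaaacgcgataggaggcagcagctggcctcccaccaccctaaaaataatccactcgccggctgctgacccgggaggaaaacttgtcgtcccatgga

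The match lies at bases 119 to 124 of the Steap4 window on the minus strand, at 251 to 256 of Kcnj8 and at 30 to 35 of Abcc9, and it overlaps no other motif searched. TGGGAA on either strand was present in 25.6% of 32851 promoters of this length, so a match in 3 of 4 windows is a description and not a site. The Notch3 window, which is not printed, held no match and 4 GC boxes. None of the 4 windows held the palindromic motif of early B cell factors (0.904% of promoters) or a CArG box, the element of serum response factor (1.63%). The E-box CANNTG was in each of the 4 (72.3% of promoters) and the GC box GGGCGG, on the minus strand, only in Abcc9 among these 4 (35.7% of promoters). Promoters were at hand for 4 of 7 rule markers. The Kcnj8 and Abcc9 genes lie 16.247 kb apart on chromosome 6 on the same strand.

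Most marker-positive cells were rich either in Rgs5 or in stromal transcripts, and few were rich in both. Cells with at least 10 Rgs5 UMIs and under 40 summed Adipoq, Lepr and Cxcl12 UMIs per 10000 UMIs are called Rgs5-high, and cells with the reverse are called Cxcl12-high. These limits were set after the values were seen, and 64 Control and 85 Dach1OE cells lay within 2-fold of either limit. There were 106 Rgs5-high cells in Control and 401 in Dach1OE, and 478 and 236 Cxcl12-high cells. The other marker-positive cells were 20 and 18 cells high for both and 46 and 85 cells high for neither.

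The median Rgs5 level in Rgs5-high cells was 182 UMIs per 10000 in Control (lowest 10.4, highest 758) and 167 in Dach1OE (10.2 to 612), and the median of the 3 stromal genes was 0 in both. In Cxcl12-high cells the median of the stromal genes was 509 and 450 UMIs per 10000, and the median of Rgs5 was 0 in both. Rgs5 levels of the Rgs5-high cells of both libraries covered nearly the same range.

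**Figure D1:**
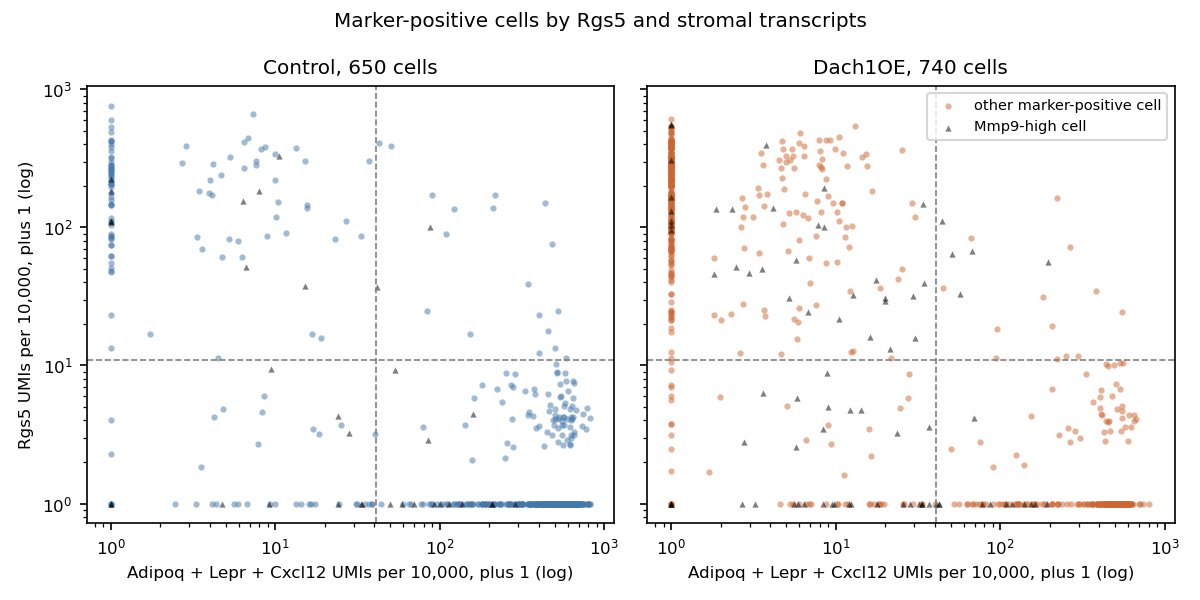
Each point is a marker-positive cell, with summed Adipoq, Lepr and Cxcl12 UMIs per 10000 on the x axis and Rgs5 UMIs per 10000 on the y axis, both plus 1 on log axes, for 650 Control cells (left) and 740 Dach1OE cells (right). Dashed lines mark the limits of 40 and 10, and triangles are cells with at least 20 Mmp9 UMIs per 10000. Most Control cells sit at the lower right and most Dach1OE cells at the upper left.

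The number of markers a cell held went with its place on this range, in part by construction, since Rgs5 is one of the 7 and cells with all 7 must hold it. Among cells with exactly 3 markers, 82.9% of 457 Control and 50.5% of 313 Dach1OE cells had UMIs of all 3 stromal genes. Among cells with 6 markers the shares were 6.90% of 29 and 0% of 91. The share with at least 10 Rgs5 UMIs per 10000 went from 4.16% and 22.7% at 3 markers to 93.1% and 97.8% at 6 markers. All 11 Control and 15 Dach1OE cells with 7 markers passed it. Just outside the rule, 1274 Control and 717 Dach1OE cells had 2 markers, of which 70.9% and 47.0% had UMIs of all 3 stromal genes. A set of 255 Control and 124 Dach1OE cells met the rule by Steap4, Notch3 and Cygb alone. The bar on Myh11 removed 701 and 1159 cells that had 3 or more markers, and 137 and 238 of those had a single Myh11 UMI.

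The share of marker-positive cells was 2.46% of kept cells in Control (exact 95% interval 2.27 to 2.65) and 2.52% in Dach1OE (2.35 to 2.71), a difference of 0.0682 points (Newcombe interval −0.192 to 0.327). Its makeup differed much more. Rgs5-high cells were 0.401% of Control cells (0.328 to 0.484) and 1.37% of Dach1OE cells (1.24 to 1.51), a ratio of 3.42 and a difference of 0.967 points (0.815 to 1.12). Cxcl12-high cells were 1.81% (1.65 to 1.97) and 0.805% (0.706 to 0.914), a ratio of 0.446. These differences depend on the number of markers required. With at least 4 markers the difference was 0.727 points for all marker-positive cells, 0.798 for Rgs5-high and −0.117 for Cxcl12-high cells, and with at least 5 it was 0.522, 0.531 and −0.00562. For all marker-positive cells it was 0.434 with cells thinned to 2000 UMIs and −0.277 under 10% mitochondrial UMIs.

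Both mice of each pool can be told apart in part by sex. In cells with Xist and no Y-linked UMI, Rgs5-high cells were 35 of 9993 in Control and 97 of 9388 in Dach1OE. In cells with Y-linked and no Xist UMI they were 16 of 5887 and 74 of 7402. The difference was 0.683 points (0.453 to 0.929) in the first and 0.728 (0.464 to 1.002) in the second. Cxcl12-high cells were lower in both comparisons, with differences of −0.9998 and −0.885 points. The share was also read against neighbours of the same library, since shares of a library sum to 100%. There were 1.32 Rgs5-high cells per 100 ECs in Control and 4.62 in Dach1OE, and 15.5 and 37.3 per 100 smooth muscle cells. Smooth muscle cells (at least 2 Myh11 UMIs and at least 3 of 6 contractile genes) were 2.59% and 3.67% of kept cells, with 1.41% and 2.44% in Xist cells and 1.99% and 2.23% in Y-linked cells, the last a difference of 0.242 points (−0.257 to 0.729). Adipoq and Lepr stromal cells outside the rule were 7.48% and 2.54%, so the lower Cxcl12-high share in Dach1OE went with a lower share of stromal cells as a whole. Of all cells with the 3 stromal transcripts, 461 of 2441 (18.9%, 17.4 to 20.5) and 212 of 957 (22.2%, 19.6 to 24.9) were marker-positive. Recovery of each cell type during digestion and depletion was not measured, and its part in these shares was not tested.

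**Figure D2:**
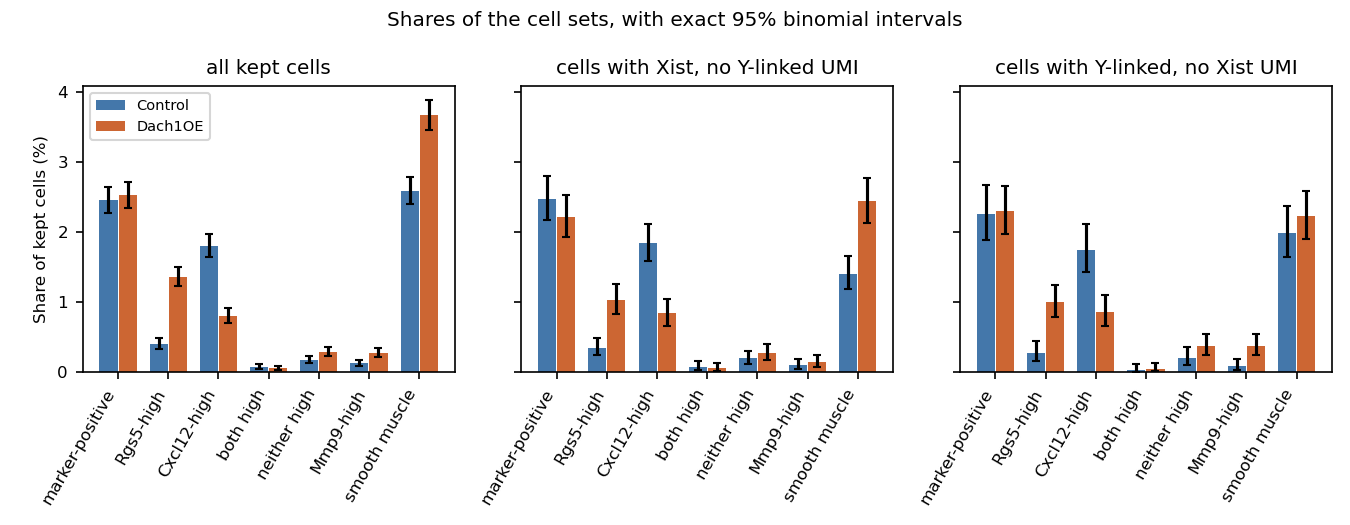
Bars give each cell set as a percentage of kept cells in Control and Dach1OE with exact 95% binomial intervals, for all kept cells, for cells with Xist and no Y-linked UMI, and for cells with Y-linked and no Xist UMI. Rgs5-high bars are higher in Dach1OE and Cxcl12-high bars higher in Control in all 3 panels, and the marker-positive bars have overlapping intervals.

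The rule markers describe these sets and test nothing. Rgs5, a GTPase-activating protein that turns off signals of vasoactive receptors, was at 18428 CPM in Rgs5-high cells of Control (95% Poisson interval 17962 to 18902) and 17197 CPM in those of Dach1OE (16965 to 17431). In Cxcl12-high cells it was at 65.9 and 67.4 CPM, in smooth muscle cells at 8254 and 8056 CPM and in ECs at 28.1 and 81.1 CPM. Kcnk3, a leak potassium channel, was at 173 and 100.2 CPM in Rgs5-high cells and at 369 and 259 CPM in smooth muscle cells. Kcnk3 was therefore higher in the smooth muscle cells that the rule leaves out than in the cells it keeps. It was detected in 32 of 106 and 71 of 401 Rgs5-high cells, and in 316 of 686 and 370 of 1076 smooth muscle cells. The share of ECs with a Kcnk3 UMI was 0.261% and 0.276%, and the source of these UMIs was not tested.

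Other markers of the rule were not required of smooth muscle cells, so their levels there are set beside those of Rgs5-high cells with no test. Steap4, a metalloreductase, was at 1441 and 1498 CPM in Rgs5-high cells against 218 and 142 CPM in smooth muscle cells, and it was at 510 and 560 CPM in Cxcl12-high cells. Cygb, a globin, was at 1258 and 1261 CPM, against 122 and 136 CPM in smooth muscle and 275 and 294 CPM in Cxcl12-high cells. Agtr1a, the receptor for angiotensin II, was at 192 and 175 CPM in Rgs5-high cells and at 28.2 and 14.6 CPM in smooth muscle. Notch3 was at 2321 and 2220 CPM in Rgs5-high cells, 641 and 754 CPM in Cxcl12-high cells and 1883 and 1858 CPM in smooth muscle. Olfm2, a secreted olfactomedin protein, was at 502 and 354 CPM in Rgs5-high cells, 132 and 180 CPM in Cxcl12-high cells and 67.3 and 27.4 CPM in smooth muscle. Of the 7 markers, then, Steap4, Notch3, Cygb and Olfm2 were also present in Cxcl12-high cells, which is how those cells met the rule.

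Other pericyte genes were read from a list of 20 that the rule did not use. Pdgfrb was at 586 and 596 CPM in Rgs5-high cells and 338 and 306 CPM in Cxcl12-high cells, so it did not set the sets far apart. The proteoglycan Cspg4 (NG2) was at 437 and 468 CPM in Rgs5-high cells against 15.9 and 19.1 CPM in Cxcl12-high cells. Kcnj8 was at 285 CPM (230 to 350) and 396 CPM (361 to 433) in Rgs5-high cells, against 5.84 and 16.9 CPM in Cxcl12-high cells. Abcc9 was at 1645 and 1602 CPM in Rgs5-high cells and 226 and 313 CPM in Cxcl12-high cells. Higd1b, a mitochondrial protein of pericytes, was at 127 and 131 CPM in Rgs5-high cells and had 0 and 1 UMIs in Cxcl12-high cells. Of the 20 list members, 9 had too few UMIs to be compared, and of the other 11, 9 were at least 2-fold higher and 0 lower in Rgs5-high than in Cxcl12-high cells in both libraries. Of all 3559 genes compared, 175 were higher and 291 lower. Members such as Cspg4 had enough UMIs largely through the Rgs5-high cells, so the count is a description.

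**Figure D3:**
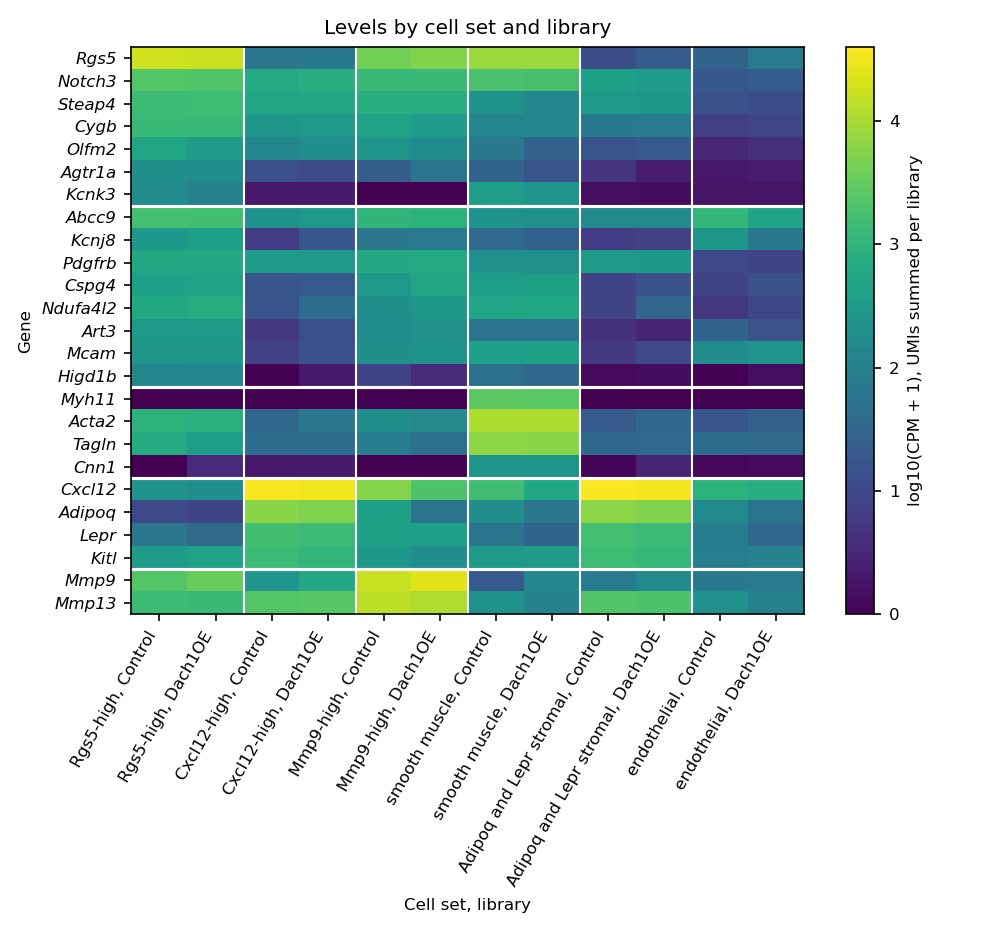
Each row is a gene and each column a cell set in one library, and the colour gives log10 of CPM plus 1 from UMIs summed over the set. Blocks from top to bottom are the 7 rule markers, other pericyte genes, contractile genes, marrow stromal genes and the metalloproteinases Mmp9 and Mmp13. Rgs5-high columns are bright for both pericyte blocks and dark for Adipoq, and Cxcl12-high columns are like the Adipoq and Lepr stromal columns.

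Set against the kept cells outside the rule, marker-positive cells had 1250 of 14859 genes (8.41%) at least 2-fold higher and 1331 (8.96%) at least 2-fold lower in both libraries. The highest were stromal genes, among them Il1rn (log2 ratio 3.96 in Control and 4.36 in Dach1OE), the bone morphogenetic protein antagonist Grem1 (3.60 and 3.72), the lipase Lpl (3.57 and 3.88) and Kng1 (3.52 and 3.71). The lowest were cartilage genes such as Ucma, Matn1 and Col9a1. All 10 chondrocyte and all 11 endothelial markers were lower, which the bars on Acan and Cdh5 largely fix. Of secreted signals 14 of 19 were higher (median log2 ratio 1.79), and of other pericyte genes 10 of 20 (median 1.23). Of marrow stromal markers outside the rules, 6 of 6 measured were higher (median 3.19). The cells were chosen by pericyte markers and many held stromal transcripts, so these counts are a description. With the rule markers left out of this comparison, the leading genes of the marker-positive cells as a whole were those of marrow stroma.

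Against smooth muscle cells, marker-positive cells had 583 of 6461 genes (9.02%) higher and 393 (6.08%) lower. The highest were again stromal, with Trf at 525 CPM in both libraries against 14.4 and 10.7 CPM in smooth muscle, and Il7 and Cbln1 among the first 5. Of 11 contractile genes outside either rule, 11 were lower (median log2 ratio −3.63). Smooth muscle cells were chosen by contractile genes and marker-positive cells held no Myh11 UMI. The contractile count therefore follows in part from the choice of cells and is a description. Against Adipoq and Lepr stromal cells, 105 of 6996 genes (1.5%) were higher and 3 (0.0429%) lower. The higher genes were led by Olfr558, an olfactory receptor gene of mural cells (66.4 and 181 CPM against 0.166 and 2.85 CPM), Thy1 (143 and 392 CPM against 5.63 and 9.36 CPM) and Cyp26b1, which degrades retinoic acid (56.7 and 122 CPM against 2.49 and 2.44 CPM). The 3 lower genes were H19 (log2 ratio −1.42 and −1.45), Wnt11 (−1.25 and −1.67) and Sfrp2 (−1.02 and −2.21). Of 16 other pericyte genes, 12 were higher there (median log2 ratio 1.60), and of 2 glial markers 0 passed in either direction. The cells were chosen by pericyte markers, and members such as Art3 and Cspg4 reached the UMI minimum largely through them. The pericyte count is therefore a description. The number of genes past 2-fold was 108 in all, against 343 and 684 with at least 4 and 5 markers and 699 with no Adipoq or Lepr UMI, and 70.9% of Control marker-positive cells held all 3 stromal transcripts.

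Cxcl12-high cells alone were closer still to the stromal cells outside the rule. Both sets were chosen by UMIs of Adipoq, Lepr and Cxcl12, so this likeness follows in part from the choice of cells and is a description. Of 5302 genes, 1 was at least 2-fold higher (0.0189%) and 1 at least 2-fold lower (0.0189%) in both libraries. The higher gene was Mmp9 (250 and 594 CPM against 74.2 and 157 CPM), with 30.1% and 22.7% of its UMIs from a single cell, and the lower was Car1, an erythroid carbonic anhydrase (32.4 and 55.0 CPM against 79.4 and 114 CPM). Abcc9 was at 226 and 313 CPM against 151 CPM in both libraries, a log2 ratio of 0.58 and 1.06. Of 4 other pericyte genes and 6 stromal markers measured, 0 passed 2-fold in both libraries.

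Rgs5-high cells and Cxcl12-high cells stood far apart, by the genes that chose them and by others. Genes high in Rgs5-high cells included Atp1b2, a sodium pump subunit (1335 and 1194 CPM against 21.8 and 27.0 CPM), Tinagl1 (830 and 792 CPM against 17.0 and 18.0 CPM), Rgs4 (601 and 501 CPM against 31.3 and 15.7 CPM) and Timp3 (1484 and 1530 CPM against 81.8 and 85.4 CPM). Genes low in them included Esm1, an endocan gene (0 and 1.64 CPM against 787 and 640 CPM). Of 12 secreted signals 10 were lower (median log2 ratio −3.01): Gas6 was at 65.1 and 43.5 CPM against 2501 and 2149 CPM, Apoe at 43.4 and 27.1 CPM against 2032 and 1932 CPM, and Kitl at 344 and 450 CPM against 1427 and 1057 CPM. Both sets were cut on stromal genes, and these signals reached the UMI minimum mostly through the Cxcl12-high cells, so the count is a description, beside 291 of 3559 genes lower in all.

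Rgs5-high cells were set against smooth muscle cells to see which mural genes differ, with the genes of both rules left out. Of 3842 genes, 189 (4.92%) were at least 2-fold higher and 258 (6.72%) at least 2-fold lower in both libraries. Median mitochondrial shares were 9.31% and 8.95% in Rgs5-high cells and 16.7% and 15.7% in smooth muscle cells, and their part in this was not tested. With cells under 10% mitochondrial UMIs only, 64 genes passed in place of 447 of 3842. That limit lies below the smooth muscle medians, so it removed many of those cells and fewer genes reached the UMI minimum. The counts are therefore not of the same genes.

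Both subunits of the ATP-sensitive channel were higher in Rgs5-high cells: Kcnj8 by a log2 ratio of 2.98 in Control and 3.92 in Dach1OE, and Abcc9 by 2.83 and 3.01. Kcnj8 was detected in 46 of 106 and 235 of 401 Rgs5-high cells and in 50 of 686 and 54 of 1076 smooth muscle cells. Channels of the contractile wall were lower, with the voltage-gated Kcna5 at 0 UMIs and 4 UMIs (at least 4.27 lower on the log2 scale in Control and −5.29 in Dach1OE), the calcium-activated channel subunit Kcnmb1 at −4.34 and −3.57, Kcnab1 at −3.20 and −3.24 and Kcnma1 at −1.69 and −1.77. In all, 2 of 7 potassium channel genes were higher and 4 lower. The lower ones reached the UMI minimum mostly through smooth muscle cells, which were chosen by contractile genes. ECs of the same libraries held Kcnj8 at 277 and 68.5 CPM and Abcc9 at 1095 and 446 CPM, so that neither gene is particular to mural cells in these data.

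Smooth muscle cells were chosen by contractile genes and Rgs5-high cells held no Myh11 UMI, so lower levels of other contractile genes follow in part from the choice of cells and are a description. Of those outside the rules, 10 of 10 measured were lower (median log2 ratio −2.62). Among them were the myosin light chain Myl9 (387 and 427 CPM against 3526 and 4026 CPM), Pln, which restrains the calcium pump (3.10 and 16.4 CPM against 433 and 529 CPM), and Tpm2 (511 and 398 CPM against 3114 and 3094 CPM). Acta2, which defined smooth muscle here, was at 939 and 846 CPM against 10762 and 10701 CPM and was detected in 48 of 106 and 188 of 401 Rgs5-high cells. Elastin (Eln) was at 372 and 237 CPM against 2935 and 3103 CPM. The receptor P2rx1 and the neurotrophin Ntf3 had 0 UMIs in Control Rgs5-high cells, against 135 and 77.2 CPM in smooth muscle.

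Matrix genes were next. Of 14 basement membrane genes 7 were higher and 2 lower (median log2 ratio 0.83, all genes 0.02), beside 4.92% and 6.72% of all genes: Col4a1 was at 6348 and 6200 CPM against 2189 CPM in both libraries, Lamb1 at 229 and 213 CPM against 28.7 and 22.0 CPM, and Lama2 at 180 and 151 CPM against 37.6 and 32.0 CPM. The lower 2 were Lama5 (18.6 and 35.3 CPM against 253 and 276 CPM) and Sparcl1 (493 and 789 CPM against 3057 and 3260 CPM). Of 17 interstitial matrix genes 8 were higher and 1 lower (median 0.90). Mgp, an inhibitor of calcification, was at 4455 and 4342 CPM against 664 and 789 CPM, and Col3a1 at 5186 and 4562 CPM against 1568 and 1216 CPM. Other genes at the top of the comparison were the chloride cotransporter Slc12a2 (log2 ratio 2.74 and 2.69), Col5a3 (2.53 and 2.88), the ectoenzyme Art3 (2.51 and 2.52) and Cyp26b1 (2.76 and 3.56), the last detected in 26 of 106 and 85 of 401 cells.

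Of all genes 4.92% were higher and 6.72% lower, to be set beside each list here. Other pericyte genes, in cells chosen by pericyte markers, were higher in 6 of 17 and lower in 0 (median 0.30), which is a description. The 6 were Abcc9, Kcnj8, Art3, Pdgfrb (log2 ratio 1.53 and 1.56), Higd1b (1.40 and 1.90) and Vtn, the gene of vitronectin (1.111 and 1.27). Cspg4, Ndufa4l2, Mcam and Rgs4 lay within 2-fold of smooth muscle. Notch pathway genes were 0 higher and 1 lower of 8 (Nrarp, −2.65 and −2.20), with Heyl, a Notch target, at 0.95 and 0.86 and the Notch ligand Jag1 at −0.47 and −0.74. Of 8 vasoactive and cGMP genes 0 were higher and 2 lower, one of them the phosphodiesterase Pde3a (−2.10 and −1.92). Igf1, at 660 and 449 CPM against 162 and 107 CPM, was the 1 of 9 secreted signals that was higher, and 2 were lower. Of 6 proliferation genes 5 were higher (median 1.15), with Mki67 at 149 and 113 CPM against 53.5 and 48.3 CPM. Adipogenic regulators were higher in 2 of 7 and PDGF pathway genes in 1 of 3, while hypoxia (0 of 10) and ribosomal protein genes (0 of 12) held none past 2-fold. Of markers of other cell types, 1 of 4 marrow stromal markers was higher (Lpl, 2658 and 2048 CPM against 1003 and 738 CPM) and 1 of 4 fibroblast and tendon markers lower (Tnmd, 0 and 2.46 CPM against 74.3 and 50.1 CPM). Of 1 endothelial, 6 chondrocyte, 5 osteoblast and 2 blood markers measured, 0 passed 2-fold in both libraries.

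**Figure D4:**
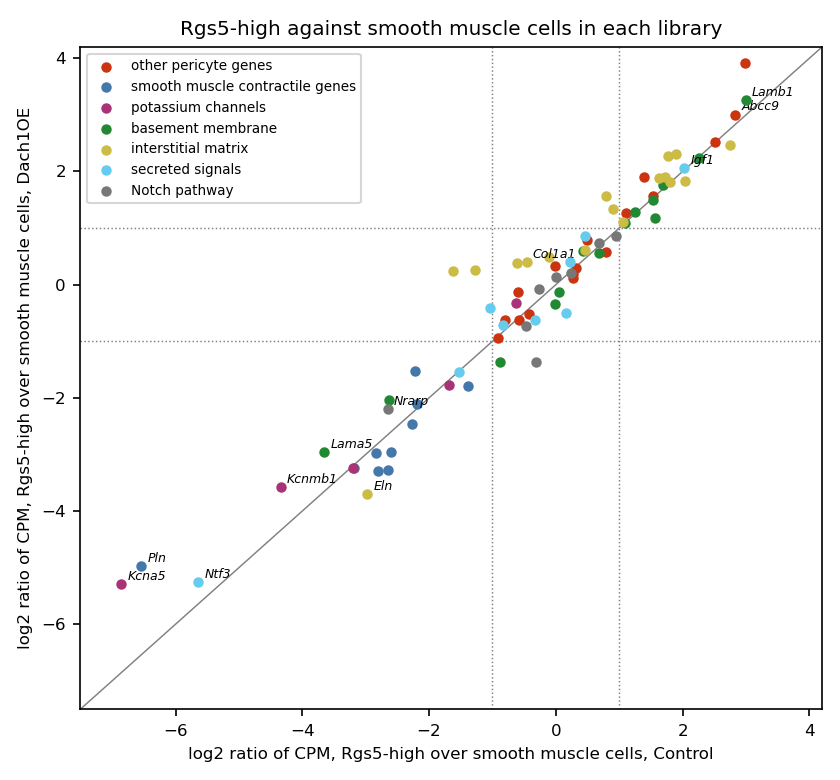
Each point is a gene of 7 lists, placed by its log2 ratio in Rgs5-high over smooth muscle cells, from CPM, with Control on the x axis and Dach1OE on the y axis. Dotted lines mark 2-fold and the diagonal equal ratios. Contractile genes and most potassium channels lie at the lower left, Abcc9 and basement membrane genes such as Lamb1 at the upper right, and most points lie near the diagonal. Kcna5 and Ntf3 have 0 Control UMIs, so their places rest on a prior count of 0.5.

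A small set of marker-positive cells carried Mmp9, a gelatinase. Cells with at least 20 Mmp9 UMIs per 10000, a limit set after the values were seen, were 34 in Control (5.23% of marker-positive cells, 3.65 to 7.23) and 82 in Dach1OE (11.1%, 8.91 to 13.6). In Xist cells they were 10 and 14, a difference of 0.0491 points of kept cells (−0.0544 to 0.160), and in Y-linked cells 5 and 28, a difference of 0.293 points (0.131 to 0.468). The log2 ratio of Mmp9 over marker-positive cells, Dach1OE over Control, was 0.11 in Xist cells and 3.06 in Y-linked cells, and the difference between the 2 kinds of cells was not tested. They were spread over the sets, with 9 and 33 in Rgs5-high, 13 and 11 in Cxcl12-high, 2 and 5 in both-high and 10 and 33 in neither-high cells. Mmp13, a collagenase, was at 13914 and 11472 CPM in them and was detected in 30 of 34 and 75 of 82, and Mmp14, a membrane protease that activates others, was at 4362 and 4809 CPM. Rgs5 was detected in 17 and 50 of them and the osteoclast enzyme Acp5 in 0 and 2. Of all kept cells 283 and 399 passed the same limit. Mmp9 led the Rgs5-high genes over smooth muscle (log2 ratio 6.90 and 4.63), and it was detected in 12 of 106 and 59 of 401 cells and 1 Control cell gave 53.0% of its UMIs. The neither-high cells without Mmp9 were led by genes of fibroblasts, among them Dpt (406 and 260 CPM), Col14a1 (279 and 297 CPM) and Mfap5 (515 and 315 CPM).

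Levels in Dach1OE over Control were first read over all marker-positive cells. Of 7143 genes with at least 100 UMIs, 131 (1.83%) were at least 2-fold higher and 139 (1.95%) at least 2-fold lower, and in the rule markers Rgs5 was higher by 1.60 (95% interval 1.56 to 1.64). Other pericyte genes were at least 2-fold higher in 12 of 19 (median log2 ratio 1.13, all genes 0.02), and marrow stromal markers at least 2-fold lower in 7 of 9 (median −1.16). Secreted signals were lower in 7 of 14 (median −0.99) and vasoactive genes higher in 3 of 9. After Prg2, the furthest apart upward were the calcium store protein Casq2 (9.25 and 66.4 CPM), H19 (78.5 and 472 CPM), Kcnj8 (46.3 and 197 CPM) and the connexin Gja4 (18.9 and 80.2 CPM). The furthest apart downward was Col6a5 (64.0 and 3.07 CPM, from 88 and 5 cells), and further down the order were Amy1 (97.4 and 28.4 CPM) and Slc26a7 (141 and 41.4 CPM). Prg2, a granule protein of eosinophils, was at 3.62 and 175 CPM with 62.7% of the Dach1OE UMIs from 1 cell. Rgs5-high cells were 16.3% of marker-positive cells in Control and 54.2% in Dach1OE, so these values also carry a different makeup of the sets. The part of makeup was not tested. Within Cxcl12-high cells alone, H19 was at 91.4 and 1127 CPM and Col6a5 at 82.4 and 4.49 CPM.

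Within Rgs5-high cells 27 of 2838 genes (0.951%) were at least 2-fold higher and 11 (0.388%) lower in Dach1OE, and 0 of 17 other pericyte genes passed in either direction (median 0.04, all genes −0.03). Log2 ratios of the rule markers were −0.10 for Rgs5 (−0.14 to −0.06), −0.06 for Notch3 (−0.18 to 0.06), 0.06 for Steap4 (−0.09 to 0.21), 0.00 for Cygb (−0.16 to 0.16) and −0.14 for Agtr1a (−0.55 to 0.30). Kcnk3 was at −0.80 (−1.26 to −0.31) and Olfm2 at −0.51 (−0.77 to −0.23), and both were also lower in smooth muscle cells. Kcnj8 was at 0.47 (0.15 to 0.81) and Abcc9 at −0.04 (−0.18 to 0.10), whereas in ECs both were lower in Dach1OE. The rule markers chose these cells in both libraries, so their levels are a description, and 0 of 17 is near the share of all genes past 2-fold.

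Genes of mineralised tissue and cartilage were among those past 2-fold in Rgs5-high cells. Higher in Dach1OE were Bglap2 (86.7 and 452 CPM), Bglap (254 and 648 CPM), both copies of the osteocalcin gene whose reads may be split between them, Ibsp (74.4 and 195 CPM), Col10a1 (37.2 and 163 CPM) and Col11a1 (143 and 566 CPM). Of 10 osteogenic genes 4 were higher (median 0.53) and of 5 chondrocyte markers 2 (median 0.87), and of 6 osteoblast markers, which overlap the osteogenic list, 3 (median 0.89). The same genes were read in other sets. In smooth muscle cells Col10a1 was at 65.8 and 158 CPM, Col11a1 at 315 and 443 CPM and Bglap at 293 and 544 CPM, and in ECs Col10a1 was at 72.9 and 121 CPM and Bglap at 446 and 576 CPM. With cells thinned to 2000 UMIs, which leaves out shallower cells, the log2 ratio was −0.39 for Bglap2 and 0.07 for Bglap. Bglap2 was detected in 6 Control and 36 Dach1OE Rgs5-high cells, with 60.7% and 27.1% of its UMIs from 1 cell. Bglap was detected in 10 Control and 60 Dach1OE Rgs5-high cells, with 62.2% and 24.0% of its UMIs from 1 cell, so the part of free RNA in these values was not tested. Col1a1 was at 7268 and 14608 CPM, a log2 ratio of 1.01, and at 5920 and 8682 CPM in ECs. The other named genes were Ddit4, a stress-induced inhibitor of mTOR (27.9 and 105 CPM, and 166 and 362 CPM in ECs), the matrix proteoglycan Dcn (65.1 and 237 CPM), and Timp1, Fam126a and Rad23b at log2 ratios of 1.25 to 1.75. Their Control UMIs were few, with 9 for Ddit4 (interval of the log2 ratio 0.945 to 3.08), 8 for Timp1, 9 for Fam126a and 15 for Rad23b. Dcn had 21 Control UMIs from 8 cells, with 57.1% from 1 cell. The basophil proteases Prss34 (77.5 and 492 CPM) and Mcpt8 (24.8 and 178 CPM) had at least 43.3% of their UMIs from 1 cell in each library, and with cells thinned to 2000 UMIs their log2 ratios were −1.64 and −1.28.

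Of the 11 genes at least 2-fold lower in Dach1OE and those next to them, some are of known function. The fatty acid carrier Fabp4 was at 1546 CPM in Control and 789 CPM in Dach1OE (log2 ratio −0.97, −1.13 to −0.81) and the fatty acid transporter Cd36 at 214 and 102 CPM (−1.07, −1.51 to −0.62). ECs held far more of both, with Fabp4 at 6388 and 3554 CPM and Cd36 at 778 and 229 CPM, and they were lower there too. Under 10% mitochondrial UMIs the Cd36 log2 ratio in Rgs5-high cells was 1.14. Cyr61, a target of mechanical signals, was at −1.09 (−1.68 to −0.46) and the activin antagonist Fst at −0.98 (−1.27 to −0.68), and in smooth muscle they were at −1.14 and −1.30. Others were H2-M9, Mgst1, Sp100, Cryab, Fam124a, Cd44 and Prelp, at −0.95 to −1.27. The contractile gene Tagln was at 685 and 380 CPM (−0.85, −1.09 to −0.61), against 6392 and 6169 CPM in smooth muscle. Medians of other lists, beside −0.03 for all genes, were basement membrane −0.06, interstitial matrix −0.07, contractile −0.18, Notch pathway 0.04, vasoactive genes 0.05, TGF-beta and BMP response −0.09, hypoxia 0.04, proliferation −0.18 and ribosomal proteins 0.09. Of 16 interstitial matrix genes 3 were at least 2-fold higher (Col1a1, Col1a2 and Dcn). Adipogenic regulators had a median of −0.36 over 6 genes with 0 past 2-fold, and Lpl and Fabp4 had intervals below 0. Further lists rested on few genes: marrow stromal markers (5, median 0.16), PDGF pathway (2, median −0.07), potassium channels (2, 0.21) and secreted signals (5, 0.21). Of 6 immediate early and stress genes 1 was higher, Fos, at 37.2 and 137 CPM in Rgs5-high cells and at 261 and 139 CPM in smooth muscle.

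**Figure D5:**
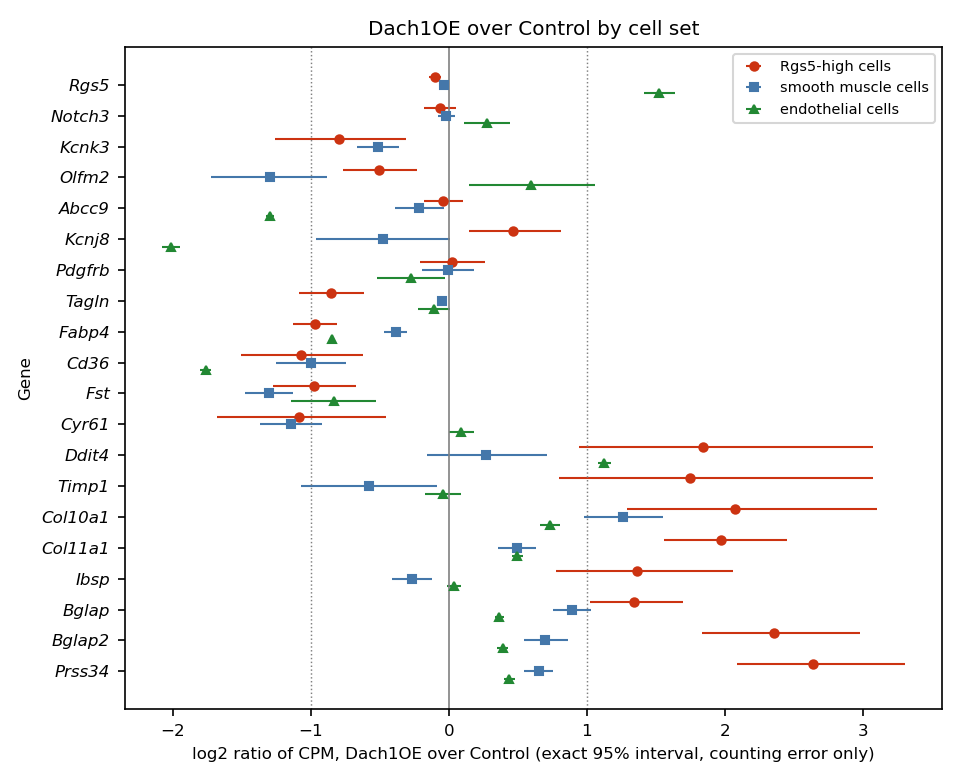
Points set the CPM of Dach1OE against that of Control, as a log2 ratio, for 20 genes in Rgs5-high cells, smooth muscle cells and ECs, with exact 95% intervals that cover counting error, and dotted lines mark 2-fold. Rgs5 and Notch3 lie near 0 in both mural sets. Prss34, Bglap2 and the cartilage gene Col10a1 lie furthest to the right in Rgs5-high cells. Col10a1 also lies to the right in smooth muscle cells, past 2-fold, and in ECs, short of it. A set with under 100 UMIs of a gene has no point.

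Within Cxcl12-high cells 7 of 4713 genes (0.149%) were at least 2-fold higher and 21 (0.446%) lower in Dach1OE. H19, a maternally expressed noncoding RNA, was at 91.4 and 1127 CPM and was detected in 20 of 478 and 33 of 236 cells. In stromal cells outside the rule it was at 211 and 1285 CPM and in ECs at 21.6 and 442 CPM, but in Rgs5-high cells at 52.7 and 37.0 CPM. Col6a5, a collagen VI chain, was at 82.4 CPM in Control, from 85 cells, and 4.49 CPM in Dach1OE, from 4 cells. Marrow stromal markers had a median of −0.24 with 0 of 9 past 2-fold (Kitl 1427 and 1057 CPM, Cxcl12 35335 and 31108 CPM), adipogenic regulators −0.31 and proliferation genes −0.74, with 1 of 6 lower. Adipoq, Lepr and Cxcl12 chose these cells in both libraries, so the stromal marker levels are a description. Tendon and joint genes were lower, but rested on few cells: Prg4 at 393 and 14.6 CPM had 86.5% of its Control UMIs from 1 cell, and Thbs4 at 142 and 0 CPM had 65.3%. Fibroblast and tendon markers were lower in 2 of 5 and the interferon response in 1 of 7 (Cxcl10, 9 Control cells). Of 8 skeletal muscle markers 0 reached 100 UMIs in a comparison of Dach1OE with Control.

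The rule barred Cdh5, Ptprc and Myh11 UMIs and the Rgs5-high limits capped Adipoq, Lepr and Cxcl12, so low values follow in part from that. As a description, defining markers of other cell types were read in Rgs5-high cells. Pecam1 was at 43.4 and 42.7 CPM in them and at 1046 and 1371 CPM in ECs, Adipoq at 9.29 and 7.39 CPM against 6283 and 5267 CPM in stromal cells, and Cnn1 at 0 and 2.46 CPM against 237 and 241 CPM in smooth muscle cells. The 11 endothelial markers summed to 688 and 577 CPM and the 12 blood cell markers to 1035 and 860 CPM in Control and Dach1OE Rgs5-high cells. Sums were 3526 and 2964 CPM for marrow stromal, 945 and 2140 CPM for chondrocyte and 691 and 1645 CPM for osteoblast markers. Fibroblast and tendon markers summed to 378 and 431 CPM and smooth muscle contractile genes to 5344 and 4387 CPM.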

How the data were processed

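Cells of postnatal day 30 long bones were profiled by whole-transcriptome scRNA-seq. Per the file headers, the authors made the deposited counts (UMIs per cell and gene, after error correction) with the BD Rhapsody pipeline, version 1.11, on GRCm38 with the GENCODE vM19 annotation. Intronic reads were counted, and strand is not given in the sources used here. The methods name another pipeline version.

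Kept cells had between 500 and 6000 genes with a UMI, and mitochondrial transcripts made up under 25% of their UMIs. Members were chosen by the marker rule on their own UMIs, and the members and gene lists were chosen with earlier results of these data known. UMIs were summed per cell set and library and given as CPM. With 1 library per group no test was made. Shares have exact Clopper-Pearson intervals, share differences Newcombe intervals, CPM exact Poisson intervals and log2 ratios exact conditional binomial intervals, all at 95%, and all for counting error only. Genes with at least 100 UMIs in both libraries together were read between libraries, and past 2-fold means an absolute log2 ratio of at least 1. Between cell sets, genes needed 100 UMIs in both sets together in each library and 2-fold with the same sign in both, with genes of the rules left out. Where a set held 0 UMIs the ratio is a bound against 3 counts.

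Between libraries the 12 highest and 12 lowest log2 ratios were named, among genes whose interval excluded 0 with the same sign in cells with only Xist and only Y-linked UMIs. Xist, Y-linked, mitochondrial, predicted (Gm and Rik) and ribosomal pseudogenes were left out. Between cell sets the 12 highest and 8 lowest were named by the smaller ratio of both libraries, with at least 100 UMIs in the higher set, and examples of lists by UMIs or ratio. The text gives the first of these in full and others by range. A few named genes are not reported here. Doublets marked by Scrublet were kept. Sequences and coordinates are of GRCm38 (RefSeq promoters). Tools were Python 3.11.15, numpy 2.4.6, scipy 1.17.1, scanpy 1.11.5 and R 4.3.3 with edgeR 4.0.16, used only for a scaling alternative. The steps were tested on simulated data.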

Additional observations from a re-analysis of the deposited data

Results flagged for a closer look

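Cells that carry only Xist and cells that carry only Y-linked UMIs differed in direction for a pair of results, and the difference was not tested. The median log2 ratio of Dach1OE over Control over the other pericyte genes in Rgs5-high cells was −0.0512 in Xist cells and 0.0269 in Y-linked cells. The difference in the share of marker-positive cells was −0.256 points in Xist cells and 0.0375 points in Y-linked cells, and both intervals include 0.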

How the results depend on the processing

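Values below replace the ones in brackets, and the Rgs5-high and Cxcl12-high results, at least 5 markers and leaving out Mmp9-high cells were chosen after seeing the data. The share difference of marker-positive cells (0.0682 points) was 0.727 with at least 4 markers, 0.522 with at least 5, 0.935 with no Adipoq or Lepr UMI, −0.329 with no Acta2 UMI, −0.277 under 10% mitochondrial UMIs, 0.434 thinned to 2000 UMIs and −0.256 in Xist cells. That of Rgs5-high cells (0.967) was 0.798, 0.531 and 0.507 with at least 4, at least 5 and no Acta2, and 0.683 and 0.728 in Xist and Y-linked cells. That of Cxcl12-high cells (−1.001) was −0.117 and −0.00562 with at least 4 and 5 markers, −0.780 without Olfm2, −1.25 under 10% mitochondrial UMIs and −0.540 thinned, and was not run without Adipoq and Lepr. The median of marrow stromal markers (−1.16) was −0.41 with no Adipoq or Lepr, −0.92 with no Acta2, −1.06 under 10% mitochondrial UMIs, −1.42 thinned, −0.95 and −1.02 in Xist and Y-linked cells, −1.44 with at least 5 markers and −1.26 as a mean over cells. That of other pericyte genes (1.13) was 0.71 and 0.23 with at least 4 and 5 markers, 0.35 with no Adipoq or Lepr and 1.54 under 10% mitochondrial UMIs.

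A higher UMI minimum or a smaller cell set leaves fewer genes to compare, so counts under the settings below are not of the same genes. Genes past 2-fold in Dach1OE over Control (270 of 7143) were 134 and 30 with at least 4 and 5 markers, 70 with no Adipoq or Lepr, 85 and 144 in Xist and Y-linked cells, and 710 and 105 at 20 and 500 UMIs. In Rgs5-high cells (38 of 2838) they were 21 with no Acta2 and 21 thinned, 20 in Xist cells, 18 with at least 5 markers, and 669 and 6 at 20 and 500 UMIs. In Rgs5-high over smooth muscle (447 of 3842) they were 64 under 10% mitochondrial UMIs, 286 thinned, 113 and 104 in Xist and Y-linked cells, and 961 and 122 at 20 and 500 UMIs. In marker-positive over stromal cells (108 of 6996) they were 343 and 684 with at least 4 and 5 markers, 699 with no Adipoq or Lepr, 42 with no Acta2, 56 and 22 in Xist and Y-linked cells, and 271 and 24 at 20 and 500 UMIs. Over smooth muscle (976 of 6461) they were 620 and 494 with at least 4 and 5 markers, 484 with no Adipoq or Lepr, 391 under 10% mitochondrial UMIs, 519 thinned, 361 and 318 in Xist and Y-linked cells, and 1645 and 292 at 20 and 500 UMIs.

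Direction reversed in Rgs5-high cells for Bglap2 (−0.39), Mcpt8 (−1.28) and Prss34 (−1.64) when thinned and for Cd36 (1.14) under 10% mitochondrial UMIs. Against smooth muscle it reversed for Mmp9 (−0.034) and Mmp13 (−1.25) without Mmp9-high cells, which the choice of those cells by Mmp9 fixes in part. Thinning also left out cells with under 2000 UMIs. Fewer cells or genes enter under most settings, and the cause of the other shifts was not tested. Of 708 values for 44 named genes, 575 moved by less than counting error, 127 moved by more and 6 reversed, and 33 of the 44 genes had at least one of these. Of the other values, 156 stayed and 65 moved. No paired analysis was possible because each group is 1 library. The single library per group, sets cut by limits chosen after seeing the values and free RNA limit every comparison. Low genes rest on few UMIs.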
